A study of Homo sapiens with 4 samples.

Results

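The genes examined here are a set of human genes that come from endogenous retroviruses, most of them envelope genes, together with the receptor of one envelope protein. They were taken by symbol from the annotation of the deposited transcripts: ERVW-1 (syncytin-1), ERVFRD-1 (syncytin-2), ERVV-1, ERVV-2, ERVMER34-1, ERVH48-1 (suppressyn), ERVK13-1, ERV3-1 and MFSD2A. These 9 genes, of 62218 genes matched in all, have 72 of the 242542 matched transcripts, and all 9 passed the filter of at least 10 counts in at least 2 libraries. Complementary DNA of the human embryonic stem cell (hESC) line H1, wild type in both states, was sequenced on the Nanopore platform. The naïve hESCs had been derived from the primed H1 line and grown in a medium called FINE, and the primed hESCs were grown in mTeSR. Each state has 2 libraries of the same line, and the labels do not say that replicates came from separate cultures, so p-values measure only the spread between these samples, which may be technical. The labels give a confluency up to which primed hESCs were grown. For naïve hESCs they give none at harvest, only one after which these were grown in FINE. The paper kept naïve hESCs at low oxygen and primed hESCs at normal oxygen. State, medium, oxygen and any difference in confluency at harvest cannot be told apart in this design.

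An endogenous retrovirus is the remnant of a virus that once integrated into the germ line, and most copies can no longer make protein. A few envelope genes were kept in primates and are known from the placenta. Syncytin-1 and syncytin-2 fuse cytotrophoblasts into the syncytiotrophoblast, the multinucleate layer that faces maternal blood. Syncytin-1 binds the amino acid transporters SLC1A5 and SLC1A4, syncytin-2 binds the lipid transporter MFSD2A, and suppressyn is a secreted envelope that binds SLC1A5 and blocks fusion by syncytin-1. GCM1 is the transcription factor known to switch on both syncytin genes.

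The total was 129276054 to 161548901 counts of alignments per library, or 23542380 to 30978794 when each gene is given the count of its transcript with the largest mean count. Levels are CPM, counts scaled to a common total, of that gene-level total after edgeR's TMM scaling, which estimates a library factor from the bulk of the genes. Its factors were 0.779 and 0.824 (naïve) and 1.25 and 1.24 (primed), apart between the states. The median log2 fold change (primed minus naïve) of all genes tested was 0.08 with TMM and 0.72 with library size in its place. The labelled states were checked against markers. All 9 naïve markers were called higher in naïve hESCs and all 9 primed markers higher in primed hESCs, although KLF17 among the former turned from -0.41 to 0.23 on the log2 scale with library size. Of the shared markers, NANOG was higher in naïve hESCs (log2 fold change -1.62), SOX2 and LIN28A were higher in primed hESCs (2.38 and 2.11), and POU5F1 was not called. DNMT3L and DPPA3 led the naïve markers (-10.69 and -9.10), and THY1 and SFRP2, with no naïve count, led the primed ones, at least 1058-fold and 854-fold higher in primed hESCs against a floor of 3 counts over the naïve libraries.

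Of the 9 genes, 7 were called higher in naïve hESCs and 1 higher in primed hESCs, against a background of 32.6% and 37.4% of all 27632 genes tested (edgeR's quasi-likelihood test, two-sided, Benjamini-Hochberg adjusted p under 0.05). ERVW-1, ERVFRD-1, ERVV-1 and ERVV-2 were transcribed in naïve hESCs and had between 0 and 9 counts in a primed library. ERVH48-1 was the most abundant per exonic kilobase in naïve hESCs and remained detectable in primed hESCs. ERVK13-1 and ERV3-1 were moderately higher in naïve hESCs, MFSD2A was higher in primed hESCs, and ERVMER34-1 was not called. In CPM, both naïve libraries lay above both primed libraries for 7 genes, against 39.6% of all genes tested, and below them for 2, against 44.8%. The median log2 fold change of the 9 genes was -4.30, the value of ERVH48-1. In these bulk libraries, fewer cells that transcribe a gene and less RNA per cell cannot be told apart.

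**Figure D1:**
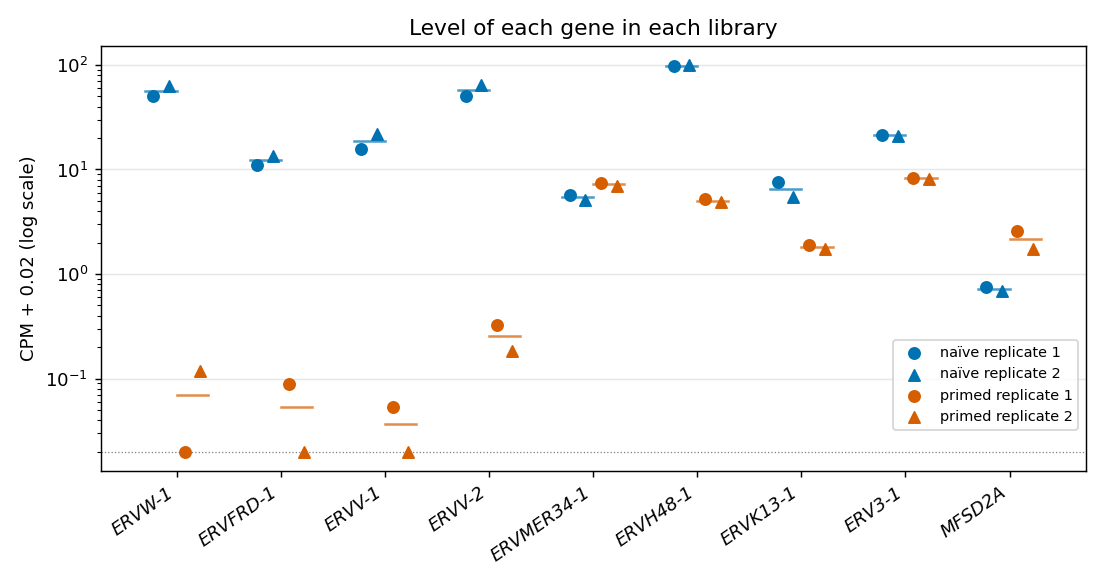
CPM plus 0.02 on a log axis for each gene, with circles for replicate 1, triangles for replicate 2 and a line at each state's mean. ERVW-1, ERVFRD-1, ERVV-1 and ERVV-2 lie between 11.1 and 65.0 CPM in the naïve libraries and at or under 0.305 CPM in the primed ones, while ERVMER34-1 lies within 5.13 to 7.43 CPM in all 4.

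ERVW-1 (ENSG00000242950) encodes syncytin-1, the fusogen that binds SLC1A5 and SLC1A4. The GRCh38 annotation places it at chr7:92468380-92477946, minus strand, with 2 exons, 2794 exonic bases and a coding sequence of 1614 bases. ERVW-1 had 1167 counts in naïve replicate 1, 1615 in naïve replicate 2, 0 in primed replicate 1 and 3 in primed replicate 2. Both naïve libraries were far above both primed libraries. Its level was 56.9 ± 8.98 CPM (SD, n = 2) in naïve hESCs, 1147 times that in primed hESCs by pooled counts, with a 95% counting interval of 392.2 to 5567 (exact conditional binomial). Without primed replicate 1 the ratio was 585.3, and without primed replicate 2, which held all primed counts, the naïve level was at least 562-fold higher against a floor of 3 counts. The adjusted p was 3.84e-28 (edgeR's quasi-likelihood test).

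ERVFRD-1 (ENSG00000244476) encodes syncytin-2, which fuses cells through MFSD2A. It lies on the minus strand at chr6:11102489-11111725 and has 2 exons, 3191 exonic bases and, like ERVW-1, 1614 coding bases. Naïve counts of ERVFRD-1 were 257 and 343, and primed counts were 2 and 0. The 2 states did not overlap. The level in naïve hESCs was 12.3 ± 1.63 CPM (SD, n = 2), 371.2 times that in primed hESCs by pooled counts (95% counting interval 102.3 to 3072), with an adjusted p of 6.59e-22 (edgeR's quasi-likelihood test). Without primed replicate 2 the ratio was 181.8, and without primed replicate 1 ERVFRD-1 was at least 126.2-fold higher in naïve hESCs against that floor. Per exonic kilobase, the naïve level was 20.4 ± 3.21 CPM (SD, n = 2) for ERVW-1 and 3.85 ± 0.510 for ERVFRD-1, so the syncytin-1 gene lay above the syncytin-2 gene in both naïve libraries.

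The transcripts of ERVW-1, ERVFRD-1, ERVV-2 and ERVH48-1 are annotated as spliced once, from a noncoding first exon to an exon that holds the whole reading frame. ERV3-1 has this structure too. The annotated junctions of the other 4 genes, which showed the larger differences, are given as the marks of a processed envelope transcript, with 12 exonic and 12 intronic bases and the first or last intronic bases GT and AG in capitals. Each is the GRCh38 reference, 5′ to 3′ on the strand of the gene. The introns have 6773 bases in ERVW-1, 6046 in ERVFRD-1, 3908 in ERVV-2 and 6054 in ERVH48-1.
ERVW-1 donor, chr7:92477370-92477393: acatccaaagtgGTgagtaatatt
ERVW-1 acceptor, chr7:92470597-92470620: ccccatccctAGatacatcctggg
ERVFRD-1 donor, chr6:11111665-11111688: ccttccctagtgGTaagacacctc
ERVFRD-1 acceptor, chr6:11105619-11105642: ctacccctacAGccattacagtac
ERVV-2 donor, chr19:53044947-53044970: ctggttatccagGTaagtaccaaa
ERVV-2 acceptor, chr19:53048855-53048878: ccaccccaacAGctatcaacattt
ERVH48-1 donor, chr21:42925334-42925357: tctcgcctactgGTaagtttcctg
ERVH48-1 acceptor, chr21:42919280-42919303: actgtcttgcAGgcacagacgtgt

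Counts over shorter annotated spans show which stretches of a gene the alignments reached. In ERVW-1, 1120 of 1167 alignments in naïve replicate 1 and 1534 of 1615 in naïve replicate 2 touched the 3′ span (ENST00000493463) at chr7:92468381-92471305, which holds the envelope exon. Those that touched the 5′ span (ENST00000603252) at chr7:92474592-92477986, which holds the first exon, numbered 998 and 1321. The sum of both exceeds the count of the gene by 951 and 1240. At least 81.5% (95% Wilson interval 79.2% to 83.6%) and 76.8% (74.7% to 78.8%) of the naïve alignments therefore touched both spans. This holds if none touched only the few bases of the 5′ span that lie beyond the counted gene span. Whether they reached the ends of the gene cannot be told from these counts. In ERVFRD-1, 254 of 257 and 338 of 343 naïve alignments touched the envelope span (ENST00000542862), and neither of the 2 primed alignments did. Spans alone do not tell whether an alignment is spliced.

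Both syncytin genes lie inside longer genes of the opposite strand, and the counting ignored strand. ERVW-1 is enclosed by the long noncoding RNA gene ENSG00000244055, whose transcript with the largest mean count had 1250, 1720, 208 and 203 counts in the order naïve replicates 1 and 2, primed replicates 1 and 2. Without the alignments over ERVW-1, 83, 105, 208 and 200 remained, which is 3.85 ± 0.366 CPM (SD, n = 2) in naïve and 6.79 ± 0.384 CPM (SD, n = 2) in primed hESCs. Outside ERVW-1 the values of that gene were thus higher in the primed libraries, and the difference was not tested. ERVFRD-1 is enclosed by SMIM13, a gene for a small membrane protein, with 477, 636, 29 and 34 counts. The alignments over SMIM13 but not over ERVFRD-1 numbered 220, 293, 27 and 34, or 10.5 ± 1.38 CPM (SD, n = 2) in naïve and 1.01 ± 0.135 CPM (SD, n = 2) in primed hESCs. The naïve libraries were therefore higher both over ERVFRD-1 and over the rest of the surrounding gene.

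ERVV-1 and ERVV-2 are neighbouring envelope genes on the plus strand of chromosome 19. ERVV-1 (ENSG00000269526) has a single exon of 2203 bases at chr19:53013921-53016123, and ERVV-2 (ENSG00000268964) has 2 exons and 3033 exonic bases at chr19:53044740-53051680, with 28616 bases between them. Their coding sequences, of 1431 and 1605 bases, were identical at 98.5% of 1429 aligned bases. Their longest gap-free coding stretch has 1304 bases and 7 differences.

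ERVV-1 had 361 and 555 naïve counts against 1 and 0 primed counts. Its naïve level of 18.7 ± 4.31 CPM (SD, n = 2) was 1133 times the primed level by pooled counts (95% counting interval 202.9 to 44810), with an adjusted p of 4.37e-24 (edgeR's quasi-likelihood test). Without primed replicate 2 the ratio was 555.1, and without primed replicate 1 ERVV-1 was at least 192.7-fold higher in naïve hESCs against the floor of 3 counts. ERVV-2 had 1160 and 1660 naïve counts against 9 and 5 primed counts. Neither gene overlapped between the states. The level of ERVV-2 fell from 57.6 ± 10.4 CPM (SD, n = 2) in naïve to 0.234 ± 0.101 CPM (SD, n = 2) in primed hESCs, a log2 fold change of -7.92 ± 0.26 (SE) with an adjusted p of 5.17e-28 (edgeR's quasi-likelihood test). An alignment was counted at every place where a read aligned, so reads of one gene may count for the other. With both genes summed as 1, a choice made after seeing the data, the log2 fold change was -8.23.

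In the naïve libraries ERVV-2 had 3.21 and 2.99 times the counts of ERVV-1. Just upstream of ERVV-1, with a gap of 740 bases and on the same strand, the noncoding RNA gene ENSG00000267943 had 589 and 907 naïve counts against 2 and 5 primed counts. It was chosen after its values were seen. Both it and ERVV-1 lie inside the span of the pseudogene ZNF702P on the opposite strand, which had 898, 1322, 217 and 239 counts. Without the alignments over ERVV-1, the ZNF702P span kept 26.7 ± 4.79 CPM (SD, n = 2) in naïve and 7.56 ± 0.323 CPM (SD, n = 2) in primed hESCs. The remaining alignments include those over ENSG00000267943, so the level of ZNF702P itself cannot be told from them. The counts of ERVV-1 and ENSG00000267943 sum to more than that of the enclosing span, so at least 52 alignments in naïve replicate 1 and 140 in naïve replicate 2 touched both, or 14.4% and 25.2% of those over ERVV-1.

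All 4 genes with almost no primed counts were higher in naïve replicate 2 than in naïve replicate 1. Their CPM in naïve replicate 2 was 1.25 times that in replicate 1 for ERVW-1, 1.21 for ERVFRD-1, 1.39 for ERVV-1 and 1.29 for ERVV-2, whereas the ratio was 1.02 for ERVH48-1 and 0.991 for ERV3-1. These are ratios of single libraries without a test.

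ERVH48-1 (ENSG00000233056) encodes suppressyn, the secreted inhibitor of syncytin-1. It lies on the minus strand at chr21:42916803-42925630, overlaps no other annotated gene, and has 2 exons, 2774 exonic bases and a coding sequence of only 480 bases. Its naïve counts were 2250 and 2537 and its primed counts 152 and 149. The replicates of each state were close and the states did not overlap. The level was 98.4 ± 1.35 CPM (SD, n = 2) in naïve and 5.01 ± 0.215 CPM (SD, n = 2) in primed hESCs, a log2 fold change of -4.30 ± 0.17 (SE) and an adjusted p of 3.27e-25 (edgeR's quasi-likelihood test). With library size it was -3.66. Per exonic kilobase the naïve level was 35.5 ± 0.485 CPM (SD, n = 2) for ERVH48-1, above the 20.4 ± 3.21 of ERVW-1. ERVW-1 and ERVV-2 lay within each other's spread, followed by ERVV-1 at 8.48 ± 1.96, whose spread reached down to ERV3-1 at 6.62 ± 0.0444. Lower still were ERVK13-1 and ERVFRD-1, again within each other's spread, then ERVMER34-1 and last MFSD2A at 0.329 ± 0.0234. In primed hESCs ERV3-1 came first at 2.58 ± 0.0377, before ERVMER34-1, ERVH48-1 at 1.81 ± 0.0775, ERVK13-1 at 1.13 ± 0.0623 and MFSD2A, whose spread took in the level of ERVK13-1. These orders rest on division by exonic length, although the counts covered whole spans. In naïve CPM without that division, ERVFRD-1 at 12.3 ± 1.63 (SD, n = 2) lay above ERVK13-1 at 6.49 ± 1.54. The mean of ERV3-1, 21.2, was then above that of ERVV-1, 18.7.

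ERV3-1 (ENSG00000213462) holds the envelope of a single-copy provirus known from the placenta, and shares its locus on the minus strand of chromosome 7 with the zinc finger gene ZNF117. It spans chr7:64990356-65006687, with 3206 exonic and 1812 coding bases. Naïve counts were 492 and 539, and primed counts were 246 and 251. Both naïve libraries were higher, and replicates differed little. The level went from 21.2 ± 0.142 CPM (SD, n = 2) in naïve to 8.26 ± 0.121 CPM (SD, n = 2) in primed hESCs, a log2 fold change of -1.36 ± 0.16 (SE) with an adjusted p of 8.64e-10 (edgeR's quasi-likelihood test). With library size in place of TMM the log2 fold change was -0.72 and still called.

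The share of ERV3-1 alignments at its 5′ end was higher in both naïve libraries. A short annotated span (ENST00000535538), of 576 bases at chr7:65006084-65006659, held 456 of 492 and 494 of 539 naïve alignments, or 92.7% (95% Wilson interval 90.04% to 94.7%) and 91.7% (89.0% to 93.7%). In the primed libraries it held 186 of 246 and 201 of 251, or 75.6% (69.9% to 80.6%) and 80.1% (74.7% to 84.6%). The intervals of the states, which cover counting error only, did not overlap, while the isoform usage of this span was not called (adjusted p = 1.00, edgeR's quasi-likelihood test). The other isoforms tested for ERV3-1 held mostly the same alignments, so that test cannot decide on the share. Alignments over this span went from 19.5 ± 0.286 to 6.43 ± 0.167 CPM (SD, n = 2 each), and those outside it were 1.66 ± 0.144 and 1.83 ± 0.288 CPM. The ZNF117 transcript that meets the 3′ end of ERV3-1 had 42, 75, 77 and 89 counts, and the one that spans nearly all of ERV3-1 had 501, 547, 254 and 261, so reads of the 2 genes cannot be told apart there.

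**Figure D2:**
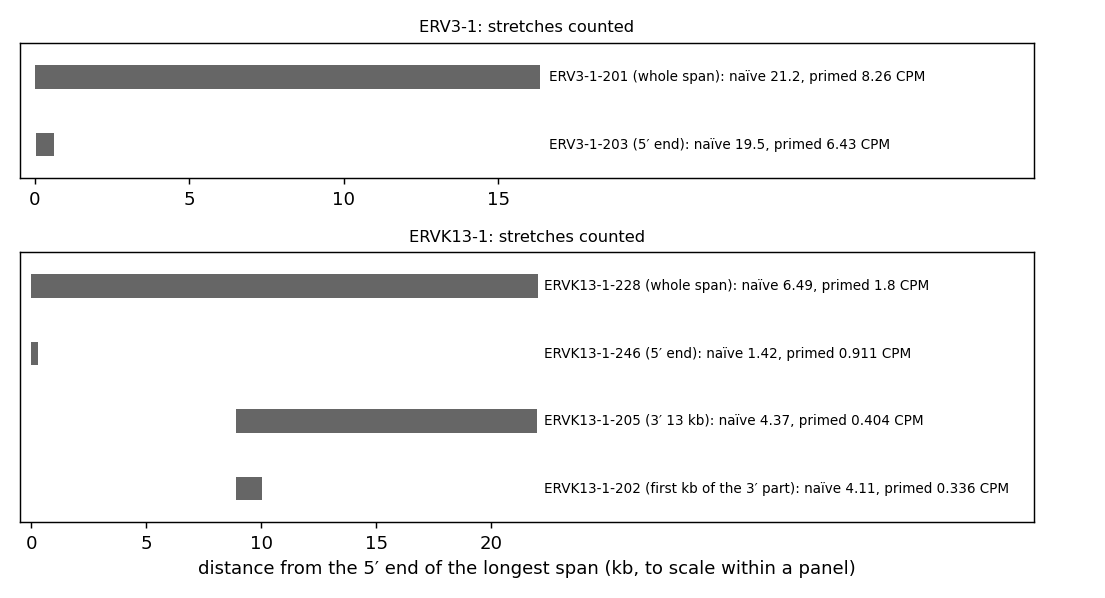
Spans of ERV3-1 and ERVK13-1 transcripts that were counted, drawn to scale by distance from the 5′ end of the longest span, with the mean CPM of each state beside each span. For ERVK13-1 the naïve and primed means are 4.37 and 0.404 CPM over the 3′ part and 1.42 and 0.911 CPM over the 5′ end.

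ERVK13-1 (ENSG00000260565) is annotated as a long noncoding RNA gene with 46 transcripts in the files and no coding sequence. Its transcript with the largest mean count, ENST00000663379, lies on the minus strand at chr16:2660349-2682369, and overlaps no other annotated gene. Naïve counts were 175 and 138, and primed counts were 55 and 53. The states did not overlap, with a wider spread between the naïve replicates than in ERV3-1. The level was 6.49 ± 1.54 CPM (SD, n = 2) in naïve and 1.80 ± 0.0988 CPM (SD, n = 2) in primed hESCs, a log2 fold change of -1.85 ± 0.24 (SE) with an adjusted p of 4.90e-09 (edgeR's quasi-likelihood test). It was -2.88 with counts summed over transcripts and -1.21 with library size, and called in both.

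The share of ERVK13-1 alignments that touched its 3′ part was lower in both primed libraries. The 3′ part of 13081 bases (ENST00000568395, chr16:2660361-2673441) had 117 and 94 naïve counts against 19 and 5 primed counts. That is 66.9% (95% Wilson interval 59.6% to 73.4%) and 68.1% (59.9% to 75.3%) of the naïve alignments of the gene, against 34.5% (23.4% to 47.7%) and 9.43% (4.10% to 20.3%) of the primed ones. Nearly all of these, 110, 88, 15 and 5, touched the first stretch of that part (ENST00000564160, chr16:2672326-2673444). These intervals cover counting error only, and those of the primed libraries did not overlap each other. Tested between samples as isoform usage, the 3′ part was not called (adjusted p = 1.00, edgeR's quasi-likelihood test). Most isoforms tested for this gene had the same counts as the 3′ part, so that test cannot decide on the share. The alignments outside the 3′ part were nearer to each other, at 2.12 ± 0.558 and 1.39 ± 0.242 CPM (SD, n = 2 each) in naïve and primed hESCs.

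The RefSeq start site of ERVK13-1 lies at the 5′ edge of this stretch, and its promoter window is therefore shown, from 250 bases before to 50 bases after the start (GRCh38.p14, chr16:2673390-2673689, minus strand, 300 bases), with each CpG in capitals. It holds 44 CpG, a number reached by 4.19% of the 35116 promoters of the same length, whose median is 14.
ERVK13-1 promoter: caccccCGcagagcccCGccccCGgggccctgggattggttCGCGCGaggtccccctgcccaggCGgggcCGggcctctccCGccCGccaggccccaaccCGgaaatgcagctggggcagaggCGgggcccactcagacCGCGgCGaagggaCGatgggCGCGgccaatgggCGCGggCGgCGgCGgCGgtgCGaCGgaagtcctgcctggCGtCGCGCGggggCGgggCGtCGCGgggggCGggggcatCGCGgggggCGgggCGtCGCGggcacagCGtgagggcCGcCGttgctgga

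Promoter windows of this table were found for 6 of the 9 genes. CpG numbers were 35 for MFSD2A, 24 for ERVMER34-1, 5 for ERVW-1 and 5 for ERVV-1, and 9 and 4 at the 2 start sites of ERV3-1. The window of ERVW-1 lies inside the gene, at chr7:92471375-92471674, and not at its annotated 5′ end. Neither strand of any of these windows holds ATGCGGG, a motif bound by GCM factors and found in 1.86% of all promoters of this length, so nothing on GCM1 can be drawn from them. TATAAA, found in 11.5% of all promoters, is in the ERVW-1 window and in the window at chr7:64999393-64999692 of ERV3-1.

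Isoform usage was tested for 56 isoforms of the 9 genes, of which 1 was called, against 0.556% of the 159577 isoforms tested (edgeR's diffSpliceDGE, adjusted p under 0.05 and a change in isoform fraction, dIF, beyond 0.1). It was ENST00000687207, a 320-base span at the 5′ end of ERVK13-1, at chr16:2682071-2682390, with 43, 25, 22 and 33 counts. The isoform fraction, from counts per exonic base, was 6.35% ± 1.35 (SD, n = 2) in naïve and 24.1% ± 11.4 (SD, n = 2) in primed hESCs, a dIF of 0.18 with an adjusted p of 0.0249 (edgeR's quasi-likelihood test). Its level in CPM was 1.42 ± 0.625 and 0.911 ± 0.232 (SD, n = 2 each), so its share of the gene was higher in primed hESCs while its mean level was lower. The call was lost when either naïve library or primed replicate 2 was left out. It was also lost with isoform fractions without length, with identical isoforms collapsed and with a filter of at least 50 counts. The 7 isoforms of ERVW-1 and ERVFRD-1 have no isoform fraction, since a primed library had no count on the gene, and ERVV-1, ERVV-2 and ERVH48-1 have 1 annotated isoform each.

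ERVMER34-1 (ENSG00000226887) encodes an envelope shed from placental and stem cells, known as HEMO. It lies on the minus strand of chromosome 4, with a longest span of chr4:52722618-52751586, 3614 exonic bases and 1689 coding bases. Naïve counts were 132 and 131, and primed counts were 219 and 215. In CPM both primed libraries lay above both naïve libraries, at 7.22 ± 0.302 (SD, n = 2) against 5.42 ± 0.415 (SD, n = 2). The log2 fold change was 0.41 ± 0.19 (SE) and the adjusted p was 0.0529 (edgeR's quasi-likelihood test), just short of the threshold. The call depended on the setting: the log2 fold change was 1.05 with library size in place of TMM and 0.51 with a filter of at least 50 counts, both called. With the replicate number as a block it was 0.41 and called, with a quasi-likelihood adjusted p of 0.0362 from edgeR. It was not called with DESeq2 (0.36), the canonical transcript (0.33), counts summed over transcripts (0.34) or no count filter (0.41). Over all alternatives the adjusted p ran from 4.29e-05 to 0.225.

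Most alignments of ERVMER34-1 touched the span of its canonical envelope transcript (ENST00000443173) at chr4:52742553-52751425, in each state. The naïve shares were 83.3% (95% Wilson interval 76.1% to 88.7%) and 87.8% (81.1% to 92.3%). The primed shares were 85.4% (80.1% to 89.5%) and 76.7% (70.7% to 81.9%). The intervals of the states overlapped. Alignments over this span were at 4.63 ± 0.184 CPM in naïve and 5.86 ± 0.686 CPM in primed hESCs (SD, n = 2 each). Those outside it were at 0.790 ± 0.231 and 1.36 ± 0.384 CPM. At its 5′ end the gene overlaps LINC01618 on the opposite strand, of which the shortest such transcript had 84, 83, 127 and 112 counts and one that encloses the whole gene had 980, 885, 4671 and 4282. At its 3′ end it meets the noncoding RNA gene DANCR, with 819, 705, 4072 and 3705 counts, and a small nucleolar RNA inside it had 2, 4, 6 and 3. How many alignments the genes share was not tested.

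MFSD2A (ENSG00000168389), the receptor of syncytin-2, carries lysophosphatidylcholine with long unsaturated fatty acids into cells. It lies on the plus strand of chromosome 1, within chr1:39955112-39969968, with 2129 exonic and 1590 coding bases. There were 17 counts in each naïve library, and primed counts were 75 and 53. Both primed libraries were higher and neither state had many counts. The level rose from 0.701 ± 0.0499 CPM (SD, n = 2) to 2.14 ± 0.579 CPM (SD, n = 2), a log2 fold change of 1.60 ± 0.33 (SE) with an adjusted p of 4.72e-05 (edgeR's quasi-likelihood test). A pseudogene inside the span, ENSG00000228477 at chr1:39962680-39963404, had 9, 2, 3 and 2 counts. With those removed, a choice made after seeing the data, the log2 fold change was 2.11, and with library size in place of TMM it was 2.24. A 1191-base span near the 3′ end (ENST00000459917) had 5, 9, 61 and 35 counts, and the 5′ part (ENST00000434861) had 14, 14, 63 and 46, so that counts were higher in the primed libraries over both parts.

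**Figure D3:**
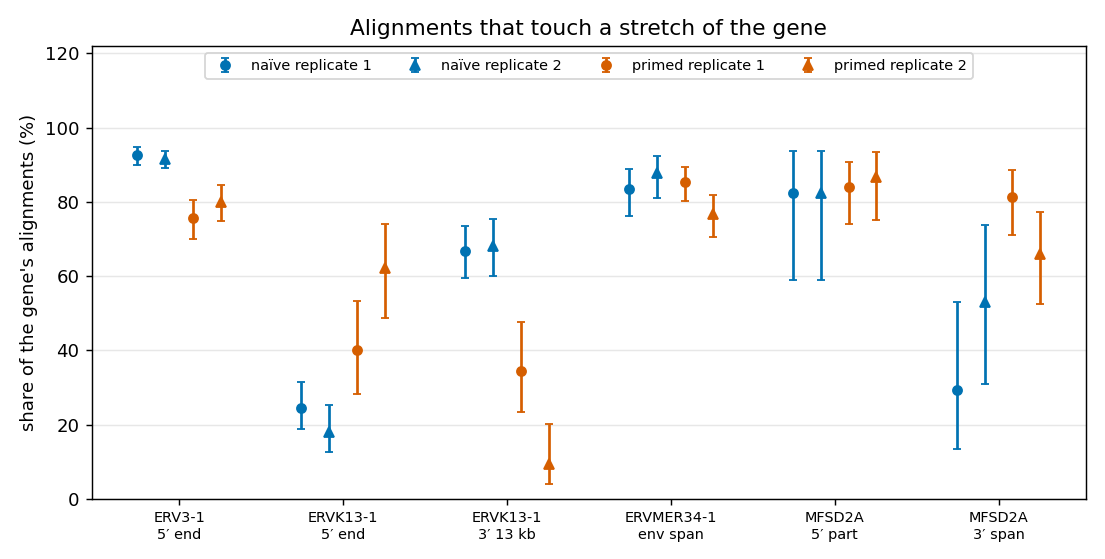
Share of the alignments of a gene that touch a stretch of it, in percent, for each library with its 95% Wilson interval, which covers counting error only. The naïve and primed intervals are apart for ERV3-1 and for the 3′ part of ERVK13-1, and at least 1 naïve and 1 primed interval overlap for each of the other stretches plotted, as at the 5′ end of ERVK13-1, where naïve replicate 1 reaches up to 31.5% and primed replicate 1 down to 28.1%.

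The known receptors and the known activator did not move as 1 group. GCM1 had 284 and 309 naïve counts against 1 and 3 primed counts, 183.4 times higher in naïve hESCs by pooled counts (95% counting interval 71.3 to 675.4), with an adjusted p of 3.99e-22 (edgeR's quasi-likelihood test). The ratio was 124.8 without primed replicate 1 and 359.4 without primed replicate 2. SLC1A4 had 10, 11, 54 and 83 counts, a log2 fold change of 2.38 ± 0.36 (SE) with an adjusted p of 2.05e-07 (edgeR's quasi-likelihood test). SLC1A5 had 808, 600, 841 and 913 counts and overlapped between the states in CPM, with a log2 fold change of -0.00 ± 0.16 (SE). It was not called with TMM, but with library size its log2 fold change was 0.64 and called.

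The fusion list holds 17 genes known for trophoblast fusion or for control of the syncytin genes. Of these, 12 were called higher in naïve hESCs, 2 higher in primed hESCs and 3 were not called, with a median log2 fold change of -1.10 beside 0.08 for all genes tested. With library size, 9 were called higher in naïve and 5 higher in primed hESCs, and CREBBP and TJP1 changed sign. For this list and those below, the background with TMM was 32.6% of all genes tested called higher in naïve and 37.4% higher in primed hESCs. Under library size, 20035 of the 27632 genes tested were called, of which 22.5% were higher in naïve hESCs and the rest higher in primed hESCs. TFAP2A, a trophoblast transcription factor, had 823, 1008, 3 and 0 counts, and was 755.1 times higher in naïve hESCs by pooled counts (95% counting interval 258.0 to 3665), or 369.9 times without primed replicate 2 and at least 385.2-fold without primed replicate 1. GATA2, which has the same role, had 619, 985, 4 and 3 counts (log2 fold change -8.08 ± 0.30, SE). GJA1, the gap junction protein connexin 43, had 472, 526, 1250 and 1187 counts and rose to primed hESCs by 0.98 ± 0.15 (SE) on the log2 scale.

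Among other genes that carry a retrovirus symbol, 6 were in the files and 3 could be tested. ERVH-1, of the HERV-H family, had 383, 418, 2461 and 2399 counts and was higher in primed hESCs, with a log2 fold change of 2.29 ± 0.15 (SE) and an adjusted p of 3.01e-17 (edgeR's quasi-likelihood test). ERVK-28 had 104, 140, 62 and 87 counts and was higher in naïve hESCs (-1.01 ± 0.23, SE), which was not called with library size (-0.38). ERVK3-1 had 544, 559, 583 and 604 counts and was not called (-0.20), and its sign turned with library size (0.44, called).

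Genes derived from the gag, rather than the envelope, of retroelements were set beside the envelope genes. Of 26 such genes, 19 could be tested, of which 2 were called higher in naïve hESCs, 10 higher in primed hESCs and 7 were not called, with a median log2 fold change of 0.47. With library size the split was 1 higher in naïve and 16 higher in primed hESCs. Under that scaling 20035 of all 27632 genes tested were called, 22.5% of them higher in naïve hESCs and the rest higher in primed hESCs. PEG10, an imprinted gene needed for the placenta, had 93, 80, 864 and 729 counts, a log2 fold change of 2.89 ± 0.19 (SE). RTL1, the imprinted gene also called PEG11, had 272, 410, 1 and 0 counts and was 843.8 times higher in naïve hESCs by pooled counts (95% counting interval 150.9 to 33375), or 413.3 times without primed replicate 2 and at least 143.5-fold without primed replicate 1. LDOC1 was higher in primed hESCs by 0.47 ± 0.18 (SE) on the log2 scale. RTL8C was higher in naïve hESCs (-0.72 ± 0.16, SE), which with library size was -0.08 and not called.

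**Figure D4:**
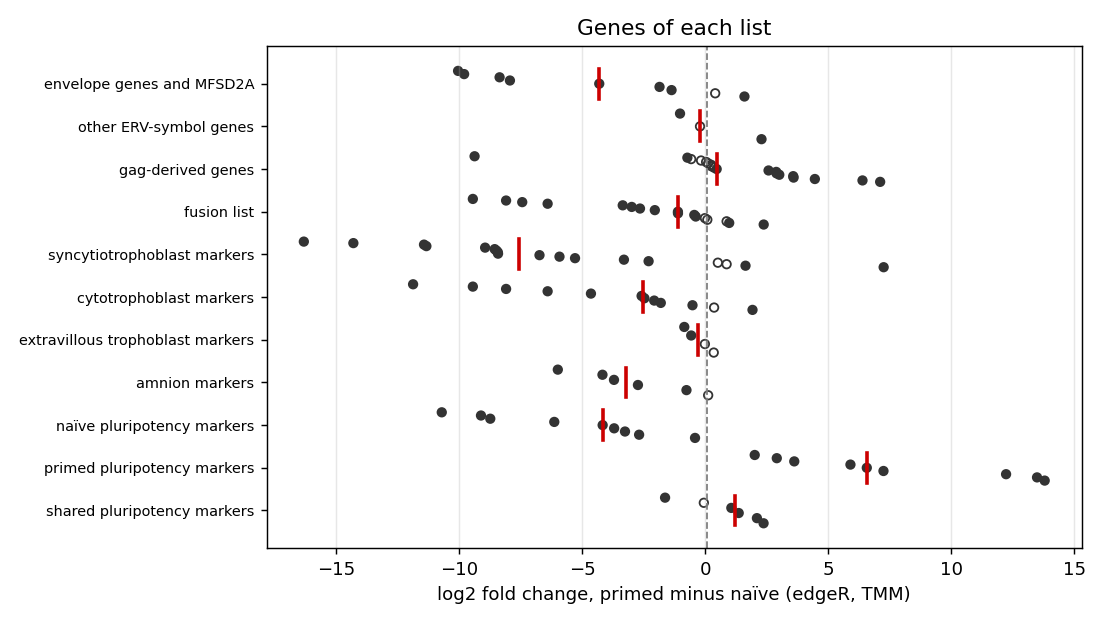
Log2 fold change (primed minus naïve, edgeR with TMM) of the genes of each list, filled where the adjusted p was under 0.05, with the median of the list in red and the median of all genes tested, 0.08, as a dashed line. The row of envelope genes and MFSD2A spreads from -10.03 (ERVW-1) to 1.60 (MFSD2A), with ERVMER34-1 next below MFSD2A at 0.41. The fitted values of genes with almost no count in one state depend on edgeR's prior count and are not bounds.

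Most of the syncytiotrophoblast and cytotrophoblast markers tested were higher in naïve hESCs, as were most of the envelope genes. The part of these markers in the result was not tested. Of 23 syncytiotrophoblast markers, 14 were called higher in naïve hESCs, 2 higher in primed hESCs, 2 were not called and 5 could not be tested. With library size the split was 14 and 4. Their median log2 fold change was -7.56, or -7.30 with genes at 0 in a state set to their bound, and their summed level was 3081 and 3375 CPM in the naïve libraries and 15.3 and 19.5 CPM in the primed libraries. A read was counted at every place where it aligned, so the sum may hold reads more than once. CGB3, CGB5 and CGB8, for example, had 9797, 9344 and 9158 counts in naïve replicate 1, and how many reads they share was not tested. CGA, the hormone alpha subunit, led the list with 35747, 47550, 0 and 1 counts. LGALS16, a placental galectin, had 1967 and 2502 naïve counts and no primed count, and was at least 1843-fold higher in naïve hESCs against a floor of 3 counts over the primed libraries. PSG4, of the pregnancy-specific glycoproteins, had 244, 259, 0 and 1 counts, and PSG3 (14, 26, 0 and 1) was called in the same direction. The 5 that could not be tested had at most 18 counts in a library: CSH1 had 1, 0, 1 and 1 counts, CSH2 had 8, 3, 3 and 3, CSHL1 had 1, 0, 0 and 1, PSG1 had 9, 18, 0 and 0, and KISS1 had 0, 0, 3 and 6. GH2, with 0, 0, 18 and 24 counts, was called higher in primed hESCs, as was TFPI2, by 1.64 ± 0.25 (SE) on the log2 scale.

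Of 12 cytotrophoblast markers, 10 were called higher in naïve hESCs and 1 higher in primed hESCs, with summed levels of 868.0 and 809.9 CPM against 214.7 and 201.6 CPM. With library size the split was 9 and 2, and TEAD4 changed sign. VGLL1 had 402, 426, 0 and 0 counts and was at least 341.5-fold higher in naïve hESCs against the same floor, and the integrin gene ITGA6 was higher in primed hESCs (1.93 ± 0.18, SE). Of 6 amnion markers, 5 were called higher in naïve hESCs, among them IGFBP3 (-2.72 ± 0.22, SE) and GABRP (-0.75 ± 0.22, SE), the latter not called with library size, under which the split was 4 and 1, with sums of 26.6, 24.99, 7.26 and 6.19 CPM. Of 6 extravillous markers, 4 could be tested, while ASCL2 (1, 5, 0 and 1 counts) and PRG2 (0, 0, 5 and 3) could not. HLA-G (-0.84 ± 0.24, SE) and ITGA5 (-0.56 ± 0.20, SE) were called higher in naïve hESCs, neither of them with library size. Under library size ITGA5 turned to 0.08, and MMP2 and ITGA1 were called higher in primed hESCs. The sums of the extravillous markers lay between 20.4 and 24.6 CPM in all 4 libraries. GATA2, GATA3 and TFAP2A are in both the fusion and the cytotrophoblast lists, and ADAM12 is in both the fusion and the syncytiotrophoblast lists.

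The genes whose levels lay nearest to those of 3 members over the 4 libraries were found among 15894 protein-coding genes, by Euclidean distance of log2(CPM + 0.5). Nearest to ERVW-1 were LHB, a subunit of luteinizing hormone, with 1241, 1298, 2 and 7 counts (distance 0.469) and the receptor gene MRGPRX1 with 948, 1181, 0 and 0 counts (0.595). Nearest to ERVFRD-1 were INSL4, a placental insulin-like peptide, with 259, 353, 0 and 0 counts (0.188) and RTL1 (0.276). Nearest to ERVH48-1 were TUBB4A, a tubulin, with 2389, 2043, 187 and 213 counts (0.636) and the interferon-induced IFI6 with 2718, 2927, 101 and 114 counts (0.716). These distances cover 4 libraries in 2 states and are descriptions. Reads counted at several places may enter them, and how many LHB shares with CGB3, CGB5 and CGB8 was not tested.

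The sequence of each member was searched in the genome to show where a read could also align. Over at least 500 bases at 90% identity or more, ERVW-1 matched 76 other places, ERVK13-1 matched 92, and ERVV-1 and ERVV-2 matched each other. ERVFRD-1, ERVMER34-1, ERV3-1 and MFSD2A matched none even at 85%, and ERVH48-1 matched 12 places at 85% with a best identity of 88.3%. For ERVW-1 the best match had 95.5% identity over 685 bases at chr17:35551288-35551971, inside SLFN14, which had 14, 9, 1 and 8 counts. One match of ERVK13-1 lies in ERVK3-1. The files do not tell primary from secondary alignments, so the share of the ERVW-1 and ERVK13-1 counts that belongs to reads of other copies was not tested.

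**Figure D5:**
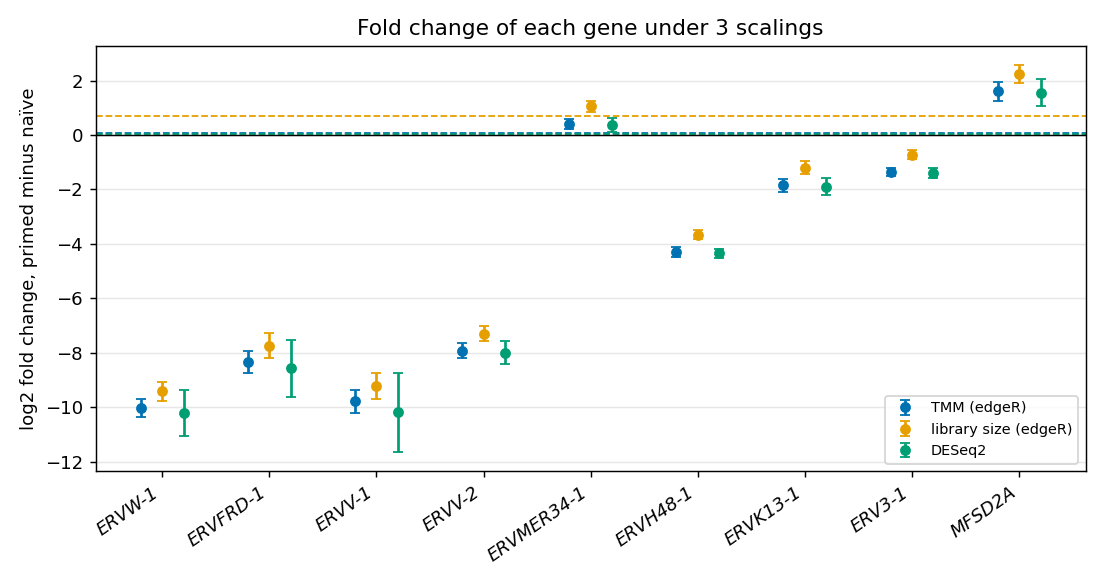
Log2 fold change of each gene (primed minus naïve) with its SE under 3 scalings, and the median of all genes tested under each as a dashed line, from 0.03 with DESeq2 to 0.72 with library size. The direction of each of the 9 genes is the same under the 3 scalings, and ERVMER34-1 lies nearest to the medians.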

How the data were processed

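The data are 4 Nanopore complementary DNA libraries of the H1 line, 2 naïve and 2 primed. The authors used minimap2 and GRCh38 for alignment, and deposited raw counts per transcript of Ensembl release 105, made by featureCounts 2.0.0 over whole spans, introns included and strand ignored. An alignment was counted for each transcript it overlapped and at each place where its read aligned. No normalization had been applied.

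Transcripts were matched by identifier to GENCODE 44, and the 2283 unmatched ones (1.00% of counts) were left out. For a gene, the transcript with the largest mean count was used. Genes reaching 10 counts in 2 or more libraries were tested with edgeR 4.0.16 in R 4.3.3 (TMM, quasi-likelihood, two-sided, Benjamini-Hochberg over all genes), and isoform usage with diffSpliceDGE. The fits were tested on simulated counts. Counting intervals of folds are exact conditional binomial and those of shares are Wilson intervals, both at 95%. They cover counting error alone, as no molecular identifiers were used. The limit that a count of 0 allows was set at 3 counts, or 0.0968 to 0.127 CPM of a library's gene-level total. Between replicates, chi-square per degree of freedom was 13.2 (naïve) and 7.82 (primed), so no 2 libraries were counted as 1. Matches used blastn 2.17.0, and tables used pandas 2.3.3 and scipy 1.17.1 in Python 3.11.15. Sequences are from GRCh38 and, for promoters, from RefSeq. Some sequence is not reported here.

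The 9 genes and the gene lists were chosen with earlier results of these data known. All 9 genes, GCM1, SLC1A4, SLC1A5, the genes that overlap a member, the 2 nearest genes of 3 members and, per list, the 2 called genes with the largest change in each direction at a mean count of at least 50 are named. Other genes named were chosen after their values were seen. Alternatives were library size, DESeq2 1.42.0, the replicate number as a block, filters on low counts, other gene counts, other settings for isoforms and each library left out in turn.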

Additional observations from a re-analysis of the deposited data

How the results depend on the processing

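All 8 calls among the 9 genes kept their direction and call under every alternative run, with 8 or 9 genes called, 9 where ERVMER34-1 was added. ERVMER34-1 was called with library size (log2 fold change 1.05), with a filter of at least 50 counts (0.51) and with the replicate block (0.41), and its log2 fold change ran from 0.33 to 0.49 with a library left out, without a call. The number of all genes called was 13015 to 21141 against 19334, and the share of calls that were higher in naïve hESCs went from 46.6% to 22.5% with library size and to 50.4% with DESeq2. Of the gag-derived genes, 5 in place of 12 were called with a filter of at least 50 counts, since fewer were tested, and of the extravillous markers 1 or 2 with a library left out (1 without primed replicate 2). For isoform usage, 493 to 557 isoforms were called with a library left out and 6809 without a dIF threshold, in place of 888. Of the isoforms of the 9 genes, 0 in place of 1 were called with a filter of at least 50 counts, with fractions without length and with identical isoforms collapsed, and 0 or 1 with a library left out. Why these calls moved was not tested, apart from the smaller number of genes. The labels tie same-numbered replicates of the 2 states by number only, and whether they share a culture or run was not tested. Deviations of same-numbered libraries correlated at 0.0593 over genes. The replicate block gave 19688 genes called and, apart from ERVMER34-1, changed no call of the 9 genes. Leaving out a library leaves 1 in its state, which is then assumed to vary like those of the other state.

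With 2 libraries per state the precision rests on few replicates, and fold changes of genes with 0 to 3 primed counts are limited by depth. Counts rest on spans, so antisense and overlapping genes, and copies with near-identical sequence, share alignments.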
